A study of Rattus norvegicus with 54 samples.

Results

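The infarct zone was compared with the border zone of hearts that had received a cell sheet after myocardial infarction (MI). The libraries were chosen by their labels, as those titled for MI with the cell sheet and for either zone, which gave 12 of the 54 libraries in the series, 6 from each zone of the same 6 hearts. All animals of the series were female F344/NJcl-rnu/rnu rats, an athymic strain that lacks mature T cells, operated on at 8 weeks of age and examined 1 week after surgery. In cell sheet and untreated MI hearts the left anterior descending coronary artery was tied off permanently, and the cell sheet, a layer of human endothelial progenitor cells on a layer of human smooth muscle cells, was laid on the epicardium of the first group only. Sham hearts had surgery without ligation and hold no infarct, so that their 3 zones are positions only. The infarct piece is the anterior wall of the left ventricle, the border piece its lateral wall and the remote piece the septum, and each was sequenced whole as polyadenylated RNA. The libraries of a group carry the label technical replicate, while the study's methods describe 6 separate hearts. If they were not separate animals, the p-values would measure technical spread alone. Reads were aligned to the rat genome and counted on rat genes only. How many reads of the sheet's human cells fell on rat genes was not tested, so the values cannot be taken as rat RNA alone.

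A week after the artery is tied off, an infarct is passing from inflammation to repair. Macrophages clear dead cardiomyocytes, fibroblasts become contractile myofibroblasts and lay down collagen, and a second set of secreted proteins that bind cells and matrix, the matricellular proteins, guides this scar. The border zone is the strip of surviving muscle beside it. Its cardiomyocytes are stretched, return to fetal genes such as the natriuretic peptides and beta myosin, and burn less fat, while new capillaries grow in from its vessels.

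The zone labels were first checked against markers of muscle, and 2 of the 6 hearts went against them. The sarcomere score is the mean log2 CPM (each count relative to the total of its library, with an offset of 0.1) of 22 genes of the contractile apparatus. In the border pieces of hearts 1 to 6 it was 3.85, 9.95, 10.67, 10.18, 10.09 and 8.75, and in the infarct pieces 7.88, 5.85, 6.32, 7.21, 9.47 and 10.56. The infarct piece thus held less muscle RNA in hearts 2, 3, 4 and 5 and more in hearts 1 and 6. The lowest sarcomere score of all 12 libraries was in the library labelled as the border piece of heart 1, and the second highest in the library labelled as the infarct piece of heart 6. The remote pieces of the same hearts lay between 10.14 and 11.48, and the infarct position of sham hearts between 9.93 and 11.45. In bulk tissue, fewer cells of a type and less RNA per cell cannot be told apart. Whether these libraries carry the wrong label was not tested. Pieces are called here by their labels, all 6 hearts were kept, and counts are also given for hearts 2 to 5 alone.

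**Figure D1:**
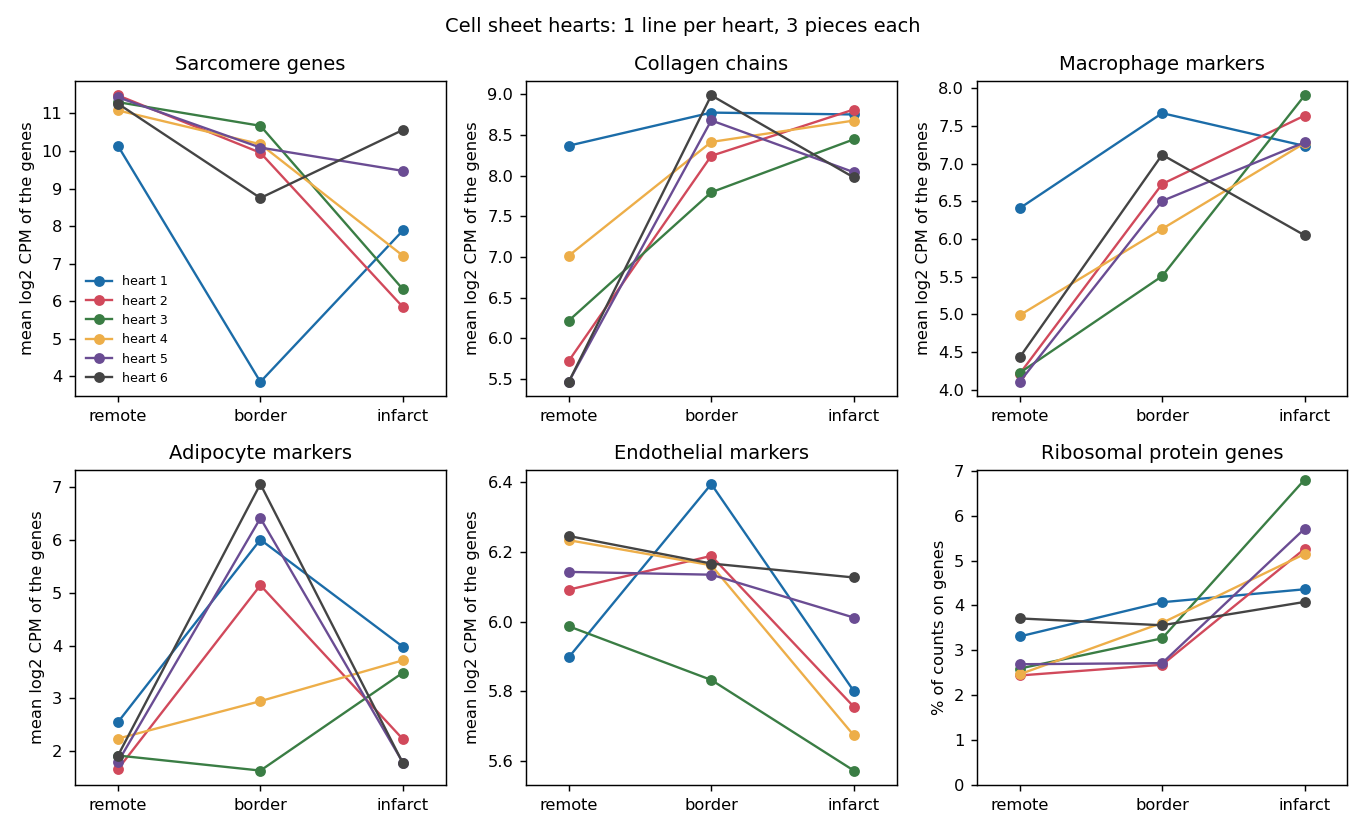
Each line is 1 cell sheet heart and each point 1 library, with the 3 zones on the x axis and, on the y axis, the mean log2 CPM of a gene list or, in the last panel, the share of counts in percent. Sarcomere lines fall from border to infarct piece in hearts 2 to 5 and climb in hearts 1 and 6, while the ribosomal protein share is higher and the endothelial score lower in the infarct piece of all 6 hearts.

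The 12 libraries held 16542441 to 23397754 counts on genes, and reads that were assigned to no gene made up 16.99% to 27.5% of all counts. That unassigned share averaged 20.05% ± 3.98 (SD, n = 6) in the infarct pieces and 23.2% ± 3.85 in the border pieces. Within hearts 1 to 6 it differed by 0.65, -7.06, -9.23, -8.31, -2.57 and 7.38 percentage points (infarct minus border), with a mean of -3.19 and p = 0.25 in an exact 2-sided sign-flip permutation test whose smallest possible p is 0.0312. It moved with the muscle content of the pieces, being lower in the infarct piece of hearts 2 to 5 and higher in hearts 1 and 6. Over all genes tested, deviations of the infarct and border piece from their group means correlated at -0.21, -0.50, -0.15 and -0.41 in hearts 2, 3, 4 and 6. In hearts 1 and 5 they correlated at 0.31 and 0.36. One mark tied the pieces of heart 3 together. The log2 difference between Myh7 (beta myosin, the fetal form in rats) and Myh6 (alpha myosin) was 6.96 in the border, 6.93 in the infarct and 6.94 in the remote piece of heart 3, while it lay between -3.50 and 3.51 in the other 51 libraries of the series.

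No gene passed the test between the zones. With the heart as a block, edgeR's quasi-likelihood test called 0 of 16343 genes (0%) at a Benjamini-Hochberg adjusted p under 0.05, and the lowest adjusted p was 0.149. At an unadjusted p under 0.05 there were 2213 genes, 1247 of them higher (7.63%) and 966 lower (5.91%) in the infarct piece. Leaving out 1 heart moved this number to 1063 without heart 2, 1244 without heart 5 and 4346 without heart 6, and 0 genes passed in each case. DESeq2 with the same block called 602 genes, 321 higher and 281 lower, of which 474 (78.7%) had 1 direction in all 6 hearts. In the 6 hearts 697 genes (4.26%) were higher in every infarct piece and 655 (4.01%) lower. Without any overlap between the 6 infarct and the 6 border libraries, 184 genes (1.13%) were higher and 147 (0.899%) lower. Without hearts 1 and 6, edgeR called 3463 genes, 1717 higher and 1746 lower. These hearts were left out after their muscle genes had been seen, and 20 of the 22 sarcomere genes are among the calls, so this count follows in part from the choice.

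The same test called 0 of 16142 genes in untreated MI hearts (0%), and DESeq2 also called 0. At an unadjusted p under 0.05, 557 genes (3.45%) were higher and 325 (2.01%) lower in the infarct piece. There 358 genes (2.22%) were higher and 305 (1.89%) lower in all 6 infarct pieces. The 882 genes at an unadjusted p under 0.05 became 365 without heart 2, 576 without heart 4, 456 without heart 5 and 1685 without heart 3. In sham hearts 1 of 15056 genes (0.00664%) passed, the complex I subunit Ndufb3, with a log2 difference of 0.51 and an adjusted p of 0.0269, and leaving out any of 5 hearts ended this call. At an unadjusted p under 0.05, 737 sham genes (4.9%) were higher and 388 (2.58%) lower, and 431 (2.86%) were higher and 375 (2.49%) lower in all 6 hearts. DESeq2 called 67 genes in sham hearts. Whether the zone difference depends on the sheet was tested as an interaction, in which edgeR called 0 of 17275 genes (lowest adjusted p 0.186, 2012 genes at an unadjusted p under 0.05) and DESeq2 402.

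The lowest p of all belonged to Lipe, which encodes hormone-sensitive lipase. Of the 12 genes with the lowest p among those lower in the infarct piece, 5 encode enzymes that store or release fat, a grouping made after the values had been seen and not tested. Fat droplets are emptied in 3 steps, by Pnpla2 (adipose triglyceride lipase), Lipe and Mgll (monoacylglycerol lipase), while Gpd1 supplies and Gpat3 acylates the glycerol phosphate from which triglycerides are built. All 5 genes were lower in the infarct piece of 6 of 6 hearts, a condition of their choice, and none passed the adjusted threshold. Lipe had 49.98 to 146 CPM in the border pieces (median 90.95) and 29.3 to 74.5 CPM in the infarct pieces (median 45.99). Its fitted log2 fold change was -0.97 ± 0.087 (SE), with an adjusted p of 0.149 in edgeR's quasi-likelihood test, and the 6 hearts differed by log2 values of -1.09, -1.23, -0.77, -0.94, -0.85 and -0.97. The heart with the smallest difference was heart 3. Pnpla2 had 88.1 to 155 CPM in the border pieces (median 110.4) and 32.6 to 118 CPM in the infarct pieces (median 39.8), a log2 fold change of -1.21 ± 0.18 (SE). Gpd1 had 45.8 to 277 CPM in the border pieces (median 87.005) and 3.98 to 56.6 CPM in the infarct pieces (median 21.1), a log2 fold change of -2.39 ± 0.35 (SE). The levels of these 3 genes overlapped between the zones although each heart showed the same direction. Mgll had 125 to 215 CPM in the border pieces (median 165) and 72.1 to 141 CPM in the infarct pieces (median 99.4), a log2 fold change of -0.71 ± 0.11 (SE). Gpat3 had 5.91 to 19.9 CPM in the border pieces (median 12.9) and 4.12 to 9.43 CPM in the infarct pieces (median 5.32), a log2 fold change of -1.08 ± 0.17 (SE). Their adjusted p was 0.290 in each case. In untreated MI hearts the same fit gave log2 fold changes of 0.053 for Lipe, 0.085 for Pnpla2, -0.049 for Gpd1, 0.17 for Mgll and -0.22 for Gpat3, with mixed directions among the 6 hearts, and the adjusted p of the interaction lay between 0.186 and 0.251.

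Adipocyte markers were lower in the infarct piece of hearts 1, 2, 5 and 6 and higher in that of hearts 3 and 4. Of 18 adipocyte markers 16 were tested, 0 passed, and Lipe, Pnpla2 and Fabp4 were lower in all 6 infarct pieces (4.01% of all genes were). Adipoq (adiponectin) was found at 182, 49.9, 0, 1.85, 118 and 233 CPM in the border pieces of hearts 1 to 6 and at 18.8, 1.66, 13.01, 10.6, 0 and 0 in the infarct pieces. The droplet protein genes Plin1 and Cidec divided the hearts in the same way. The adipocyte score differed by -2.03, -2.92, 1.86, 0.78, -4.64 and -5.29 (infarct minus border, log2). Heart 3 had Adipoq at 0 CPM in the border piece. Lipe, Pnpla2, Gpd1, Gpat3 and Mgll were lower in its infarct piece too, which was a condition of their choice. The part of fat tissue in their differences was not tested. Fasn (fatty acid synthase) ranged in the border pieces from 49.5 to 1209 CPM, with a log2 fold change of -1.34, and Fabp4 (a fatty acid carrier of adipocytes and endothelium) had one of -0.66.

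The other 7 genes with the lowest p among those lower in the infarct piece were Fzd4, Pcdh19, Lrrc58, Fryl, Epha4, Mib1 and Ptar1. Fzd4, a Wnt and norrin receptor of vessels, had 98.7 to 168 CPM in the border pieces (median 136) and 60.4 to 105 CPM in the infarct pieces (median 71.6). Its log2 fold change was -0.83 ± 0.12 (SE), with an adjusted p of 0.290 (edgeR). The highest infarct piece, in heart 1, lay above the lowest border piece, in heart 3. Mib1, a ubiquitin ligase that Notch ligands need in order to signal, had 49.7 to 61.2 CPM in the border pieces (median 54.3) and 32.7 to 43.4 CPM in the infarct pieces (median 37.6), without overlap. Epha4 (an ephrin receptor) had a log2 fold change of -0.76 ± 0.12 (SE) and Pcdh19 (a protocadherin) one of -0.48 ± 0.071 (SE). Fryl, Lrrc58 and Ptar1 had log2 fold changes of -0.66, -0.75 and -0.84, and their 6 infarct pieces all lay below the 6 border pieces. Over all genes 0.899% were lower without overlap, and picking genes by low p favours such genes.

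**Figure D2:**
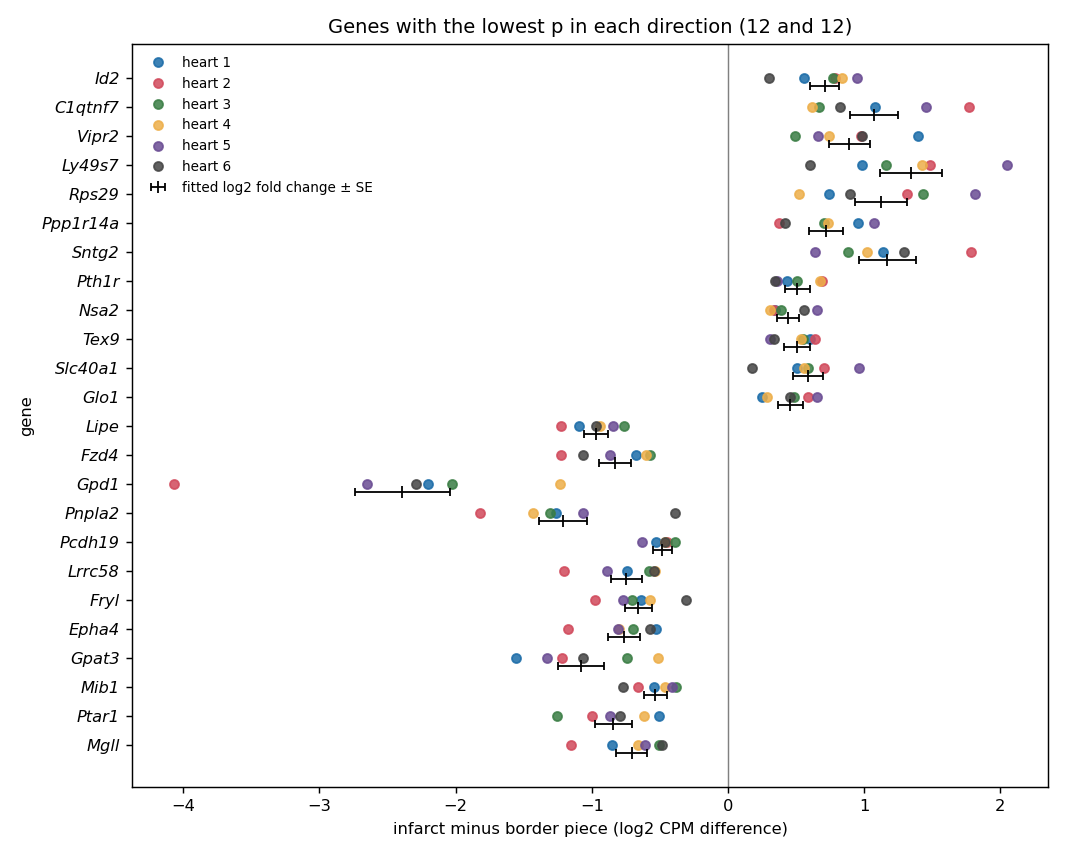
Points give the infarct minus border difference in log2 CPM (x axis) of each heart, and black bars the fitted log2 fold change ± SE, for the 12 genes with the lowest p in each direction (y axis). All points of the upper 12 genes lie right of 0 and all points of the lower 12 left of it, a condition of their choice, and Gpd1 spreads widest.

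Among genes with higher values in the infarct piece the lowest p belonged to Id2, an inhibitor of basic helix-loop-helix factors and a target of BMP signals. Id2 had 26.1 to 40.6 CPM in the border pieces (median 31.9) and 32.2 to 72.6 CPM in the infarct pieces (median 55.6). Its log2 fold change was 0.71 ± 0.11 (SE), with an adjusted p of 0.290 in edgeR's quasi-likelihood test, which was also the value for the other 11 genes named here. The difference was smallest in heart 6 (0.30) and largest in heart 5 (0.95). C1qtnf7, a secreted protein of the C1q and tumor necrosis factor family, had 17.4 to 38.1 CPM in the border pieces (median 26.7) and 40.7 to 74.6 CPM in the infarct pieces (median 52.96), with no overlap and a log2 fold change of 1.07 ± 0.18 (SE). Slc40a1 (ferroportin, the iron exporter of macrophages) had 27.1 to 47.1 CPM in the border pieces (median 32.2) and 40.8 to 64.4 CPM in the infarct pieces (median 50.5), a log2 fold change of 0.59 ± 0.11 (SE). Ly49s7, which belongs to the killer cell lectin-like receptors of natural killer cells, had a log2 fold change of 1.34 ± 0.23 (SE) at levels of at most 7.504 CPM.

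Several of these genes act in smooth muscle or in hormone signalling. Ppp1r14a, an inhibitor of myosin phosphatase in smooth muscle, had 9.202 to 16.2 CPM in the border pieces (median 9.896) and 11.98 to 27.02 CPM in the infarct pieces (median 18.2) and a log2 fold change of 0.72 ± 0.13 (SE). Vipr2, a receptor for vasoactive intestinal peptide, had one of 0.89 ± 0.15 (SE), and Pth1r, the receptor for parathyroid hormone and its related peptide, one of 0.51 ± 0.093 (SE). Sntg2 (a syntrophin), Tex9, Nsa2 (a ribosome assembly factor), Glo1 (glyoxalase, which clears methylglyoxal) and the ribosomal protein gene Rps29 had log2 fold changes of 1.17, 0.50, 0.44, 0.46 and 1.12. Of the 12 genes, C1qtnf7, Rps29 and Nsa2 did not overlap between the zones, beside 1.13% of all genes that were higher without overlap. The 12 were picked for low p and 1 direction in all 6 hearts, which favours such genes.

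Rps29 belonged to a family whose members nearly all had higher values in the infarct piece. The cytosolic ribosomal proteins build both subunits of the ribosome, and in vertebrates their messengers as a rule begin with a C and a run of pyrimidines, through which the cell sets their translation. The family was chosen after its values had been seen. Of 86 genes tested 62 were higher in the infarct piece of all 6 hearts and 0 lower, where 4.26% of all genes were higher, and the 6 and 6 libraries of 48 genes did not overlap (1.13% of all genes were higher without overlap). Their median log2 fold change was 0.67, against 0.0019 over all genes tested. In edgeR 0 passed the adjusted threshold and 77 had an unadjusted p under 0.05 in either direction (2213 of all 16343 genes did). DESeq2 called 67 of the family and 602 of all 16343 genes. With library sizes in place of TMM factors 57 of 86 were higher in 6 of 6 hearts and 0 lower, beside 589 higher and 695 lower of all genes. The 1 member with a negative value was Rpl3l, a form made by striated muscle, at -2.07. In hearts 1 to 6 the mean difference over the family was 0.16, 0.91, 0.92, 0.34, 1.06 and 0.35 on the log2 scale. Hearts 1 and 6, whose muscle genes went the other way, were among the 3 with the smallest differences. Reads of these genes can be shared with many near-identical processed copies, so single members are less certain than the family.

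As a share of all counts on genes, the family made up 4.07%, 2.68%, 3.27%, 3.61%, 2.71% and 3.56% in the border pieces of hearts 1 to 6 and 4.36%, 5.26%, 6.81%, 5.15%, 5.71% and 4.08% in the infarct pieces. All 6 infarct pieces lay above all 6 border pieces, the closest being heart 6 at 4.08% and the border piece of heart 1 at 4.07%. The remote pieces held 2.44% to 3.71%. In untreated MI hearts the border pieces held 5.03% to 6.86% and the infarct pieces 4.56% to 5.88%, so that the border pieces of cell sheet hearts lay below both. The median log2 fold change of the family was -0.054 in untreated MI and 0.14 in sham hearts. In the interaction 0 of these genes passed (lowest adjusted p 0.186, edgeR), 73 had an unadjusted p under 0.05 (2012 of all 17275 genes did), and the median was 0.68.

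The start regions of 4 members are shown because such a run is common in the family. They are the 4 with the lowest p among members whose annotated start carries the run. The sequences are from RefSeq on the GRCr8 assembly, 60 bases before to 20 bases after the annotated start, 5′ to 3′ on the coding strand, and capitals mark a C followed by at least 4 C or T that begins within 5 bases of the start.
Rpl39, chrX:121195877-121195956 (minus strand): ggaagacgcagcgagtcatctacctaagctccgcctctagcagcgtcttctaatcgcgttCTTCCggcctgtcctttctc
Rpl28, chr1:78083513-78083592 (minus strand): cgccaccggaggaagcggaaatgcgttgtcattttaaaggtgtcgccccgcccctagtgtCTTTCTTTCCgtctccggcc
Rps13, chr1:180009641-180009720 (minus strand): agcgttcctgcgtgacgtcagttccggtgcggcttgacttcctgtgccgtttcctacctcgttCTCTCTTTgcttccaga
Rps15, chr7:10068096-10068175 (minus strand): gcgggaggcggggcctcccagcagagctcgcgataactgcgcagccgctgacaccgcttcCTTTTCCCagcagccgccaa

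Rpl39 had 62.2 to 118 CPM in the border pieces (median 93.3) and 135 to 246 in the infarct pieces (median 159), a log2 fold change of 0.97 ± 0.21 (SE). Rpl28 had 235 to 312 CPM in the border pieces (median 287) and 359.8 to 559 in the infarct pieces (median 426), a log2 fold change of 0.66 ± 0.15 (SE). Rps13 had 188 to 244 CPM in the border pieces (median 223) and 262 to 436 in the infarct pieces (median 341), a log2 fold change of 0.63 ± 0.14 (SE). These proteins belong to the large subunit (Rpl) and the small subunit (Rps). Rps15 had 326 to 501 CPM in the border pieces (median 436) and 582 to 974 in the infarct pieces (median 710.2), a log2 fold change of 0.80 ± 0.19 (SE). In none of the 4, which were chosen by low p, did the zones overlap, beside 1.13% of all genes that were higher without overlap. RefSeq held a start region for 65 of the 86 family members, and 39 of these (60%) carried the run, against 4656 of 27457 start regions of all genes (17%). Among all genes higher in 6 of 6 hearts 129 of 523 (24.7%) carried it, and 96 of 475 (20.2%) once the family was set aside. Among genes lower in 6 of 6 hearts it was 89 of 464 (19.2%). The run is a match of letters in a window on another assembly than the one the reads were aligned to, and says nothing of where transcription began in these hearts.

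A set of genes known for very long transcripts had lower values in the infarct piece. Its 33 genes, among them the giant ubiquitin ligases Huwe1 and Herc1, were also put together after the values had been seen. Their common direction can follow from that choice, so nothing is read from it. All 33 had a log2 fold change below 0, from -0.81 to -0.044 with a median of -0.38, 14 were lower in 6 of 6 hearts (4.01% of all genes were) and 0 higher. Utrn (utrophin, a large relative of dystrophin) had 172 to 228 CPM in the border pieces (median 205) and 101 to 154 CPM in the infarct pieces (median 131), a log2 fold change of -0.64 ± 0.12 (SE) with an adjusted p of 0.290 (edgeR). Its 6 and 6 libraries did not overlap (0.899% of all genes were lower without overlap). Mdn1 (midasin, a ribosome assembly ATPase) had a log2 fold change of -0.39 and was lower in 5 of 6 hearts. The median of the set in untreated MI hearts was 0.099. Without hearts 1 and 6, 79 ribosomal protein genes were higher and 1 lower in 4 of 4 hearts, while 4165 of all 16343 genes were higher (25.5%) and 3915 lower (24%), and of the long set 23 were lower and 0 higher. These counts depend on the choice of hearts, which was made by their muscle genes. No file used here gives transcript lengths on the authors' assembly, and the part of length in these differences was not tested.

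**Figure D3:**
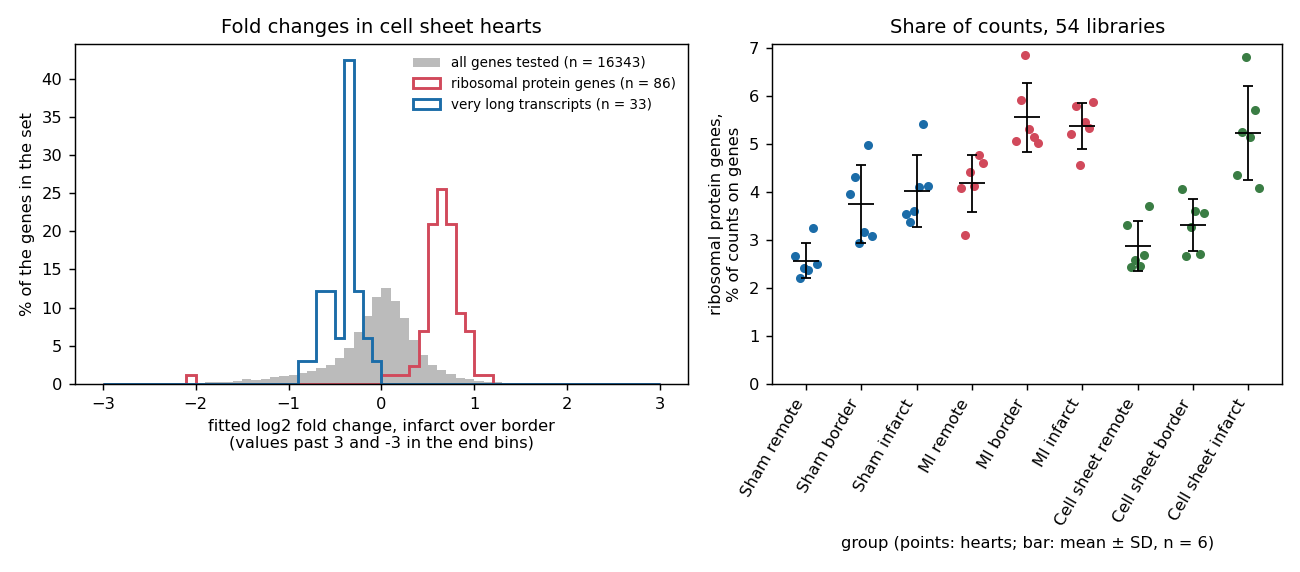
The left panel gives the share of genes in each set (y axis, percent) by fitted log2 fold change (x axis), and the right panel the ribosomal protein share of counts (y axis, percent) in all 54 libraries by group, with means ± SD. Ribosomal protein genes centre on 0.67 and very long transcripts on -0.38, and both sets were chosen after their values had been seen. The border and remote pieces of cell sheet hearts lie mostly below the pieces of untreated MI hearts.

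Cardiomyocyte genes differed widely between the zones, and in opposite directions in different hearts. Their 6 lists, from contraction to energy supply, hold 123 genes that were tested, of which 0 passed in edgeR and 0 had 1 direction in 6 of 6 hearts. The median log2 fold change was -1.40 for sarcomere genes, -1.204 for calcium handling and ion channels, -0.84 for stretch and stress response, -0.60 for cardiac transcription factors, -0.84 for fatty acid oxidation and -0.86 for the respiratory chain. These medians in untreated MI hearts lay between -0.39 and -0.21. The sarcomere score differed by 4.03, -4.11, -4.35, -2.96, -0.62 and 1.81 in hearts 1 to 6. Hearts 2, 3 and 4 had scores that were lower in the infarct piece by the widest margin, heart 5 had a smaller difference, and hearts 1 and 6 had higher ones. In hearts 2 to 5 alone 20 of 22 sarcomere genes were lower in 4 of 4, which restates how these hearts were chosen.

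Actc1 (cardiac actin) had 35.1 to 5998 CPM in the border pieces (median 3939) and 224 to 5431 CPM in the infarct pieces (median 692). Tnnt2 (cardiac troponin T) had 35.7 to 4816 CPM in the border pieces (median 2719.6) and 155 to 4272 CPM in the infarct pieces (median 449.9). Both ranged widely within each zone, with heart 1 lowest among the border pieces and heart 6 highest among the infarct pieces. Ttn (titin) had 21.8 to 4925 CPM in the border pieces (median 2460.1) and 89.5 to 2771 CPM in the infarct pieces (median 419). Atp2a2, the calcium pump that refills the sarcoplasmic reticulum, had a log2 fold change of -1.69 ± 1.05 (SE) and its inhibitor Pln (phospholamban) one of -1.14 ± 1.604 (SE). The calcium release channel Ryr2 had a log2 fold change of -2.05 and the L-type channel Cacna1c -1.26. Each was higher in the infarct piece of hearts 1 and 6 only. Mb (myoglobin), Atp5f1b (ATP synthase), Fabp3 and Hadhb (fatty acid transport and oxidation), Mef2a and Mef2d (transcription factors), Gapdh and Aldoa (glycolysis) had log2 fold changes of -1.37, -1.07, -1.45, -0.88, -0.28, -0.49, -0.23 and -0.43. The SE of these values lay between 0.18 and 1.89. In the list of glycolysis and the hypoxia response, 1 of 24 genes tested, Ankrd37, was higher in 6 of 6 hearts (4.26% of all genes were).

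Each cardiomyocyte gene was also taken relative to the sarcomere mean of its own library, a measure chosen after the values had been seen. It does not set muscle content aside for every gene. For genes that hardly follow the sarcomere genes it returns the sarcomere difference with its sign reversed. Mef2a, for example, differed by -3.92, 3.47, 3.47, 2.61, 0.33 and -1.45 in hearts 1 to 6. Sarcomere genes are also part of the mean they are set against. On this scale 6 of the 123 genes (4.88%) were higher in the infarct piece of all 6 hearts and 6 (4.88%) lower. Over all genes on the plain scale the shares were 4.26% and 4.01%. These scales are unlike, so nothing is read from the counts. Untreated MI hearts had 3 higher and 5 lower of the same 123. Those higher in cell sheet hearts were Nppa and Nppb (the atrial and brain natriuretic peptides), Csrp3 (muscle LIM protein of the Z disc), Tcap (the titin cap), Myoz2 (a Z-disc partner of calcineurin) and Cox6a2 (a muscle form of cytochrome oxidase). Nppb was higher by 0.82, 1.72, 1.53, 1.21, 0.47 and 0.34 log2 units in hearts 1 to 6. Csrp3 was higher by 0.88, 1.61, 1.42, 1.14, 0.38 and 0.15, and Nppa by 2.71, 1.04, 0.89, 0.51, 0.14 and 0.19. These genes were listed for being higher in all 6 hearts. The direction of hearts 1 and 6, where the infarct piece held more muscle, therefore follows from that choice. Among genes that were lower, Hrc (a calcium-binding protein of the sarcoplasmic reticulum), Kcnj3 (an inward rectifier channel) and Ppargc1a (a coactivator of mitochondrial genes) had mean differences of -0.63 ± 0.40 (SD, n = 6), -0.95 ± 1.04 and -0.70 ± 0.68. In untreated MI hearts Kcnj3 was lower in 6 of 6 as well, Ppargc1a in 5 and Hrc in 4. In the list of stretch and stress response, 3 of 14 genes were higher in 6 of 6 cell sheet hearts, and 0 of 14 in untreated MI hearts, where Nppb was higher in 4 and Nppa in 3 of 6. That difference between the groups of hearts was not tested. On the plain scale Nppa had a log2 fold change of -0.84 ± 1.56 (SE), Nppb -0.37 ± 1.2 (SE), Csrp3 -0.47 ± 1.21 (SE) and Ankrd1 (a stretch-induced Z-disc protein) -0.62 ± 1.15 (SE).

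**Figure D4:**
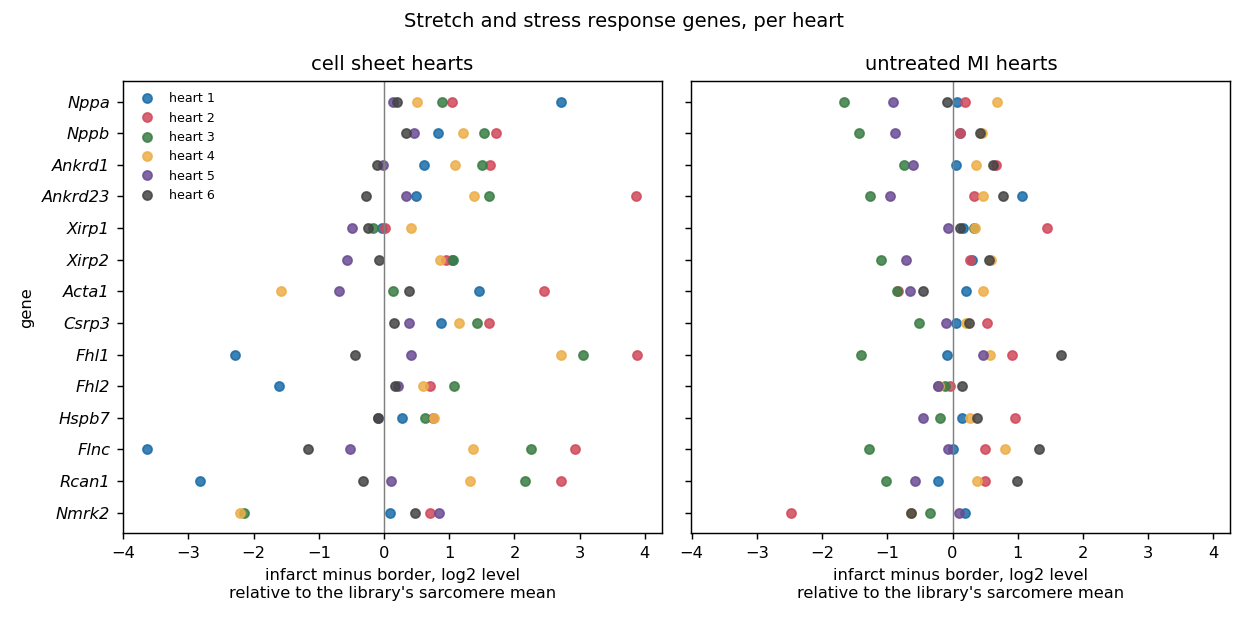
Each point is 1 heart, placed by the infarct minus border difference of a gene (y axis) in log2 level relative to the sarcomere mean of the same library (x axis), for 14 stretch and stress response genes. In cell sheet hearts Nppa, Nppb and Csrp3 have all 6 points right of 0, and in untreated MI hearts no gene does.

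Scar genes split into collagens, which showed no common direction, and matrix-binding proteins, some of which were higher in all 6 infarct pieces. Of 25 collagen chains 0 passed and 0 had 1 direction in 6 of 6 hearts, with a median log2 fold change of -0.019. Col1a1 had 7328 to 17543 CPM in the border pieces (median 11699) and 7403 to 21042 CPM in the infarct pieces (median 15403), a log2 fold change of 0.16 ± 0.48 (SE), and Col3a1 had one of -0.01 ± 0.44 (SE). The chaperone Serpinh1 and the crosslinker Loxl1, of 21 tested genes of collagen processing, had log2 fold changes of 0.28 and 0.36. Both zones of these hearts were collagen-rich, with collagen scores of 7.80 to 8.99 in the border and 7.98 to 8.81 in the infarct pieces, against 5.31 to 5.71 in the sham infarct position. Of 24 tested metalloproteinases and inhibitors 0 passed, and Timp2 and Mmp2 had log2 fold changes of 0.25 and 0.29.

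Of 29 matricellular and fibre-associated genes 0 passed and 3 were higher in 6 of 6 hearts (4.26% of all genes were). In untreated MI hearts 4 of 29 were (2.22% of all genes there). The 3 of the cell sheet hearts were Ccn1, Ccn2 and Ccn5 of the CCN family of secreted signal proteins. Its members Ccn3 and Ccn4 were higher in 5 and 4 of 6 hearts, with log2 fold changes of 0.61 and 0.73. Ccn5 had 41.1 to 165 CPM in the border pieces (median 82.01) and 92.02 to 671 CPM in the infarct pieces (median 309), a log2 fold change of 1.89 ± 0.36 (SE) with an adjusted p of 0.290 in edgeR's quasi-likelihood test. Ccn2 (connective tissue growth factor) had 180.2 to 885 CPM in the border pieces (median 424) and 309 to 1697 CPM in the infarct pieces (median 884), a log2 fold change of 1.03 ± 0.31 (SE). Ccn1 had one of 0.71 ± 0.22 (SE). The zones overlapped for all 3, while every heart had the higher value in its infarct piece. In untreated MI hearts Ccn2 was higher in 6 of 6 infarct pieces and Ccn1 and Ccn5 in 5 of 6. Without hearts 1 and 6, 17 of 29 were higher in 4 of 4 hearts and 0 lower, beside 25.5% of all genes that were higher. This count depends on the choice of hearts by their muscle genes. Spp1 (osteopontin) differed by log2 values of -1.44, 5.70, 5.21, 3.53, 1.06 and -1.24 in hearts 1 to 6, Sparc and Fn1 (fibronectin) had log2 fold changes of 0.42 and 0.063, Postn (periostin) 0.74 and Thbs4 0.63.

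The leucine-rich proteoglycans, which coat collagen fibrils, and cartilage-type genes held the largest share of genes with 1 direction among the scar lists. Of 17 tested genes 0 passed and 4 were higher in 6 of 6 hearts (4.26% of all genes were). In untreated MI hearts 3 of 17 were (2.22% of all genes there). The 4 of the cell sheet hearts were Ogn (osteoglycin), Aspn (asporin), Dcn (decorin) and Sox9, the master factor of cartilage. Ogn had 210.3 to 456 CPM in the border pieces (median 291) and 312 to 736 CPM in the infarct pieces (median 518), a log2 fold change of 0.76 ± 0.17 (SE). Sox9 had 3.401 to 18.7 CPM in the border pieces (median 7.99) and 11.1 to 33.2 CPM in the infarct pieces (median 21.4), a log2 fold change of 1.25 ± 0.30 (SE). Aspn and Dcn had log2 fold changes of 1.06 ± 0.31 (SE) and 0.37 ± 0.19 (SE), and Bgn (biglycan) had a log2 fold change of 0.44 with heart 6 the other way. Comp, cartilage oligomeric matrix protein, was 25.1, 13.03, 13.2, 35.4, 7.88 and 4.11 CPM in the infarct pieces of hearts 1 to 6 and 2.36, 1.31, 2.09, 3.04, 1.37 and 7.33 in the border pieces. Its log2 fold change was 2.58 ± 0.62 (SE) with an adjusted p of 0.290 (edgeR), and heart 6 alone had less in the infarct piece. In hearts 2 to 5, 10 of the 17 genes were higher and 1 lower in 4 of 4 hearts, beside 25.5% and 24% of all genes. These counts depend on the choice of hearts by their muscle genes.

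Contractile genes of smooth muscle and myofibroblasts had a median of 0.48 over 14 genes, 0 passed, and Tpm2 (beta tropomyosin) was higher in 6 of 6 hearts. Tpm2 had 79.9 to 154 CPM in the border pieces (median 133) and 182 to 422 CPM in the infarct pieces (median 300.2), a log2 fold change of 1.203 ± 0.27 (SE) and an adjusted p of 0.290 (edgeR). Its 6 and 6 libraries did not overlap (1.13% of all genes were higher without overlap). Tagln (SM22) was higher in 5 of 6 hearts at a log2 fold change of 1.36 ± 0.45 (SE), and Acta2 (smooth muscle actin) in 5 of 6 at a log2 fold change of 0.91 ± 0.39 (SE). Heart 6 was the exception for both. Tpm4 had a log2 fold change of 0.43. Among 28 tested genes of TGF-beta, activin and BMP signals 0 passed, Id2 was higher and Tgfbr3 (betaglycan, a co-receptor) lower in 6 of 6 hearts, the latter at a log2 fold change of -0.68 ± 0.18 (SE), and Fstl1 and Ltbp4 had log2 fold changes of 0.44 and -0.29. Of 19 tested Wnt signals and antagonists Wnt5a was lower in 6 of 6 hearts at a log2 fold change of -0.50 ± 0.15 (SE), and Dkk3 and Sfrp2 had log2 fold changes of 0.51 and 0.54. Of 18 tested IGF and renin-angiotensin genes the receptor Igf1r was lower in 6 of 6 hearts at a log2 fold change of -0.59 ± 0.14 (SE), and Igfbp4 and Igfbp7 had log2 fold changes of -0.084 and 0.10. None of these genes passed the adjusted threshold in edgeR. Over all genes 4.26% were higher and 4.01% lower in 6 of 6 hearts, so nothing is read from 1 such gene in a list.

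Most endothelial genes had lower values in the infarct piece, and the direction was shared by all hearts for 7 of 23 endothelial genes tested, where 4.01% of all genes were lower in 6 of 6 hearts. These were Pecam1 (CD31), Cdh5 (VE-cadherin), Esam, Aplnr and its ligand Apln, Esm1 and Sox17, 10 of the 23 had an unadjusted p under 0.05 in that direction (5.91% of all genes), and 0 passed in edgeR. The median log2 fold change of the list was -0.29. Cdh5 had 204 to 372 CPM in the border pieces (median 263) and 165 to 233 CPM in the infarct pieces (median 197), a log2 fold change of -0.46 ± 0.12 (SE). Pecam1 had 250.02 to 393 CPM in the border pieces (median 317) and 202 to 286 CPM in the infarct pieces (median 232), a log2 fold change of -0.41 ± 0.12 (SE). Aplnr, the apelin receptor of growing vessels, had 54.2 to 153 CPM in the border pieces (median 120.1) and 52.5 to 99.6 CPM in the infarct pieces (median 76.95), a log2 fold change of -0.52 ± 0.11 (SE). The zones overlapped for all 3 genes, and their adjusted p lay between 0.29 and 0.3 in edgeR's quasi-likelihood test. Apln, Esm1 (a tip cell gene), Sox17 and Esam had log2 fold changes of -0.45, -0.49, -0.48 and -0.27, and Eng (endoglin) had a log2 fold change of 0.06. In untreated MI hearts 0 of the 23 had 1 direction in 6 of 6 hearts (2.22% of all genes there were higher and 1.89% lower) and the median was -0.051. The endothelial score differed by -0.59, -0.43, -0.26, -0.49, -0.12 and -0.04 in cell sheet hearts, the smallest in heart 6. Without hearts 1 and 6, 10 of 23 were lower in 4 of 4 hearts beside 24% of all genes, a count that depends on the choice of hearts by their muscle genes.

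Of 12 pericyte and mural genes Rgs5 was lower in 6 of 6 hearts (4.01% of all genes were) at a log2 fold change of -0.34 ± 0.13 (SE). Pdgfrb had a log2 fold change of 0.20, Abcc9 -1.06 and Notch3 -0.43. Of 26 angiogenic ligands and receptors 0 passed and 0 had 1 direction in 6 of 6 hearts. Vegfa, which cardiomyocytes make as well, had 195 to 583 CPM in the border pieces (median 433) and 121 to 561 CPM in the infarct pieces (median 212), a log2 fold change of -0.77 ± 0.48 (SE) and the same 2 exceptions, hearts 1 and 6, as the sarcomere genes. Cxcl12 had a log2 fold change of -0.38. Of 7 lymphatic genes Ccl21 had a log2 fold change of 0.92 and Lyve1 -0.51.

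The macrophage score was higher in the infarct piece of hearts 2 to 5 and lower in hearts 1 and 6. It differed by -0.43, 0.91, 2.40, 1.14, 0.78 and -1.07, the median log2 fold change of 23 tested genes was 0.63, and 0 passed or had 1 direction in 6 of 6 hearts. Lyz2 (lysozyme) had 1211 to 3138 CPM in the border pieces (median 1461) and 1221 to 10506 CPM in the infarct pieces (median 4764), a log2 fold change of 1.46 ± 0.51 (SE), and was higher in 5 of 6 hearts. Gpnmb, a gene of lipid-laden macrophages, had a log2 fold change of 1.71 ± 0.76 (SE) and Cd68 1.10 ± 0.55 (SE). Heart 3 had the largest difference in each. In hearts 2 to 5 alone, 20 of the 23 macrophage genes were higher in 4 of 4 hearts and 0 lower, beside 25.5% of all genes that were higher. These hearts were chosen by their muscle genes, which ran against the macrophage score in 6 of 6 hearts, so the count depends on that choice. Of 14 tested T and natural killer cell genes Cd3e and Klrd1 were higher in 6 of 6 hearts (4.26% of all genes were). Their log2 fold changes were 1.06 ± 0.23 (SE) and 0.95 ± 0.30 (SE). Over hearts 2 to 5 alone 9 of 14 were higher in 4 of 4 hearts, beside the same 25.5%, and this count also depends on the choice of hearts. Cd3e, a chain of the T cell receptor complex, reached at most 6.13 CPM, in a strain without a thymus. Cd8a had a log2 fold change of 1.51 and Cd4, which rat macrophages also carry, 0.057. Cd74, the invariant chain of MHC class II, was higher in 6 of 6 hearts at a log2 fold change of 0.59 ± 0.21 (SE). It was the 1 of 13 class II and dendritic genes to be so, beside 4.26% of all genes. RT1-Da had a log2 fold change of 0.73.

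Mast cell genes had higher values in the border piece of 5 hearts, with heart 3 the other way. Cpa3 (a mast cell protease) differed by -1.83, -3.02, 4.52, -0.72, -1.67 and -3.86 in hearts 1 to 6, and Mcpt1l1 by -1.45, -2.83, 4.91, -0.78, -1.94 and -3.68. Kit, the stem cell factor receptor of mast cells and some endothelium, was the 1 of 9 genes to be lower in 6 of 6 hearts, at a log2 fold change of -0.45 ± 0.095 (SE). Igha and Jchain (secreted antibody) had log2 fold changes of -2.12 and -1.49, among 3 of 10 B and plasma cell genes that could be tested. Of 9 tested neutrophil genes S100a9 had a log2 fold change of 1.31 and Csf3r 0.84. Of 25 chemokines and receptors Ccl6 had a log2 fold change of 0.13 and Cxcl16 0.56. Of 17 tested cytokines Csf1 had a log2 fold change of 0.13 and Il33 0.09. Of 16 complement genes C7 was higher in 6 of 6 hearts at a log2 fold change of 0.37 ± 0.21 (SE), while C4a had a log2 fold change of -1.01. Of 13 tested interferon-stimulated genes Ifi27 had a log2 fold change of 0.30. No gene of these lists passed in edgeR. Over all genes 4.26% were higher and 4.01% lower in 6 of 6 hearts, so nothing is read from 1 such gene in a list.

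Proliferation genes did not share a direction. Of 25 genes 0 passed and 0 had 1 direction in 6 of 6 hearts, and the median was 0.12. Mki67 had 24.6 to 106 CPM in the border pieces (median 66.3) and 28.6 to 80.03 CPM in the infarct pieces (median 70.3), a log2 fold change of -0.082 ± 0.37 (SE), and Pcna had a log2 fold change of 0.19. Of 18 genes of folding and stress in the endoplasmic reticulum 1 was higher in 6 of 6 hearts (4.26% of all genes were). It was Atf4, a factor of the integrated stress response, at a log2 fold change of 0.28 ± 0.11 (SE). Calr and Hspa5 had log2 fold changes of 0.28 and 0.03. Of 13 genes of heme and iron handling Slc40a1 was the only one higher in 6 of 6, and the ferritin chains Ftl1 and Fth1 had log2 fold changes of 1.14 ± 0.44 (SE) and 0.55 ± 0.30 (SE).

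Markers of tissue from the heart's surface and its surroundings varied between single pieces. The score of epicardial and mesothelial genes differed by 0.50, -1.41, 2.11, -1.597, -1.48 and -2.10, with Wt1 (an epicardial transcription factor) at a log2 fold change of -0.71 ± 0.29 (SE) and Msln (mesothelin) at -0.60. Fast skeletal muscle myosin Myh4 was at 2.88 and 22.6 CPM in the infarct pieces of hearts 2 and 6 and below 0.1 in the other 10 libraries, and Myh2 at 17.9 and 42.97 against less than 1. Sln (sarcolipin), found in atrium and skeletal muscle, was at 8.61 and 10.99 in the same 2 pieces. Sftpc, surfactant protein of the lung, was at 98.5 CPM in the border piece of heart 4 and 30.6 in the infarct piece of heart 6. Each of these is thus a matter of 1 or 2 pieces, and their part in the other differences was not tested. Ager had a log2 fold change of -0.36, Tnnt3 0.88, the atrial light chain Myl4 0.99, the glial and nerve genes Erbb3 and Prph -0.62 and 0.52, and the globins Hba-a1 and Hbb 0.34 and 0.40. Hba-a1, Mcpt1l1, Ccl21 and Ly49s7 belong to families with near-identical copies, so their counts are uncertain. Of the 4 atrial, 4 skeletal muscle, 2 lung, 6 blood and 13 glial and nerve genes tested, 0 passed in edgeR and 0 had 1 direction in 6 of 6 hearts.

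**Figure D5:**
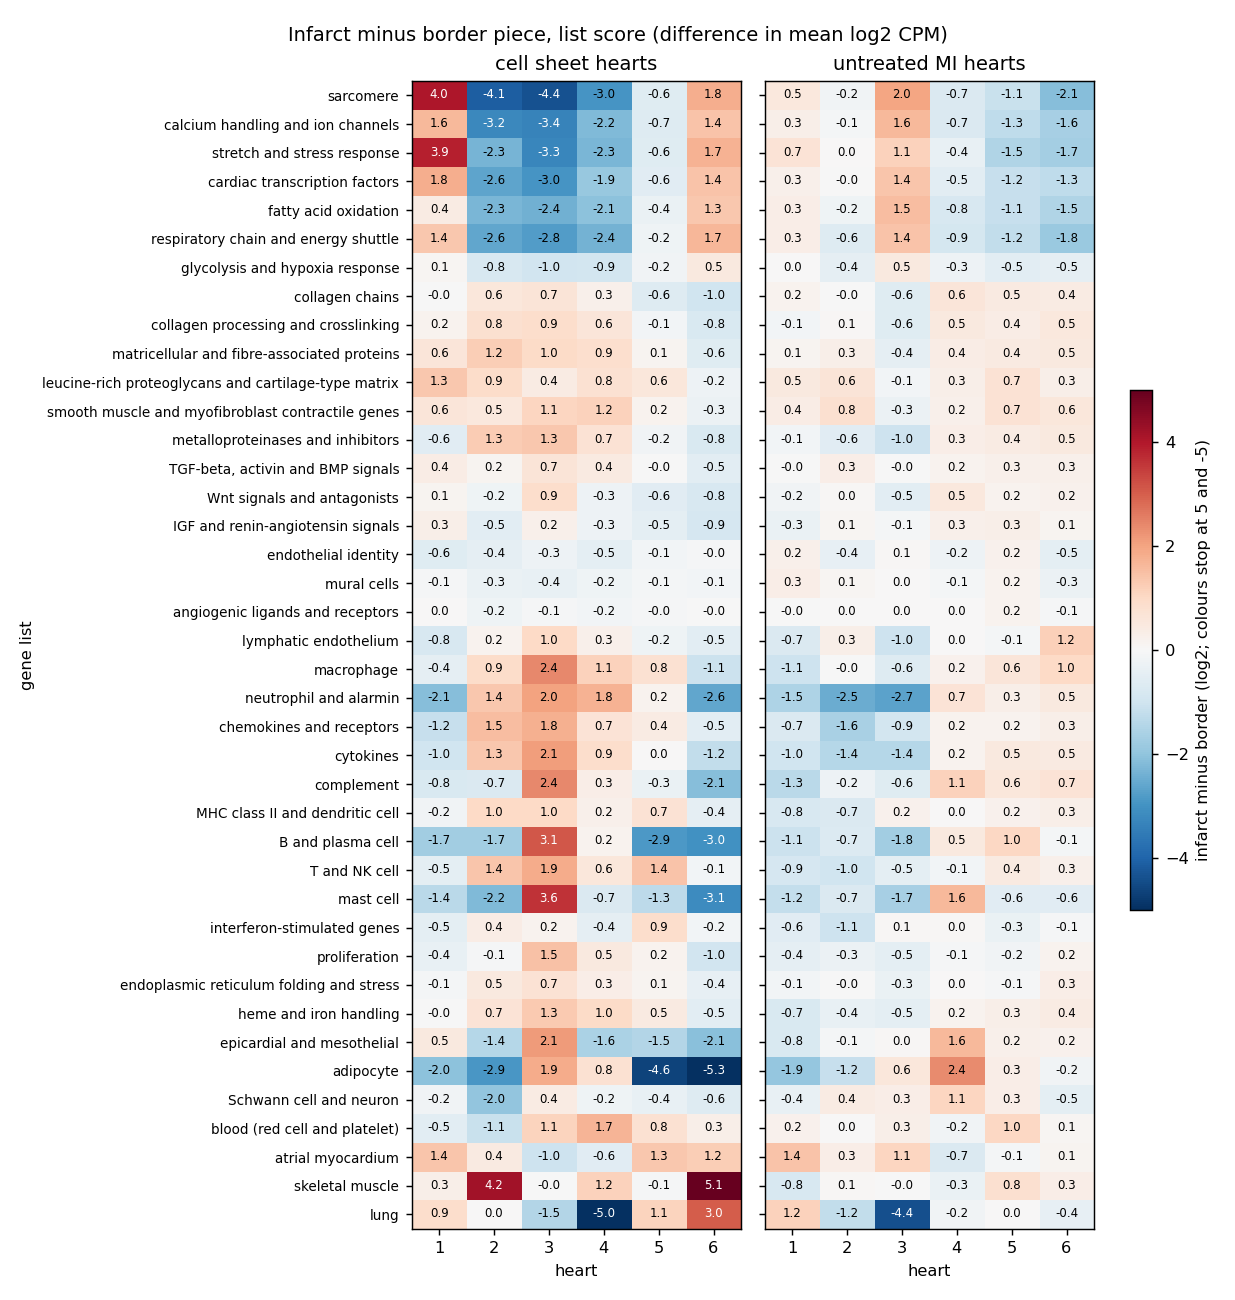
Each cell gives the infarct minus border difference of a list score (difference in mean log2 CPM, red for higher in the infarct piece) for 40 gene lists (y axis) and 6 hearts (x axis) of the cell sheet group, left, and the untreated MI group, right. The 6 cardiomyocyte lists at the top change sign between hearts in both groups, while the endothelial and mural lists are below 0 in all 6 cell sheet hearts.

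Over the 40 lists, 668 of 715 distinct genes passed the filter on low counts and 3 had no row under any symbol tried. Of the 668, 16 were higher and 15 lower in 6 of 6 hearts, beside 4.26% and 4.01% of all genes, so the lists held fewer such genes than their number would give at those shares. The genes that the study itself names were followed as well. Col6a1, Col6a2 and Col6a3, chains of the collagen around cells, had log2 fold changes of -0.19 ± 0.36 (SE), -0.14 ± 0.35 (SE) and -0.066 ± 0.34 (SE), and Col12a1 had a log2 fold change of 0.39 ± 0.49 (SE). Each of the 3 collagen VI chains was higher in the infarct piece of 3 hearts and lower in 3. Ndnf (a secreted neuron-derived factor) was lower in 5 of 6 hearts at a log2 fold change of -0.94 ± 0.72 (SE), Notch3 in 5 of 6 at a log2 fold change of -0.43 ± 0.17 (SE), and Adam12 had a log2 fold change of 0.072 ± 0.61 (SE). Cxcr4, the receptor of Cxcl12, had 24.02 to 46.5 CPM in the border pieces (median 40.4) and 39.9 to 111 CPM in the infarct pieces (median 67.3). Its log2 fold change was 0.90 ± 0.26 (SE) with an adjusted p of 0.3 (edgeR), with heart 6 as the exception. The second receptor Ackr3 had a log2 fold change of 0.10.

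The 5 genes with the lowest p in the comparison of the zone difference between cell sheet and untreated MI hearts were LOC100910678, C1qtnf7, Helz, Cyp2e1 and Spen, each with an adjusted p of 0.186 in edgeR. Cyp2e1, a cytochrome P450 enzyme, had 0.662 to 11.99 CPM in the border pieces (median 7.15) and 0.0874 to 1.17 CPM in the infarct pieces (median 0.396) in cell sheet hearts. Its log2 fold change was -3.23 ± 0.66 (SE), against 1.68 in untreated MI hearts, and it was lower in 6 of 6 cell sheet and higher in 6 of 6 untreated hearts. C1qtnf7 was higher in 6 of 6 cell sheet and lower in 6 of 6 untreated hearts (-0.14), as was LOC100910678 (0.89 and -0.50). Helz (an RNA helicase) had log2 fold changes of -0.32 and 0.18, and Spen (a repressor that binds RNA) -0.44 and 0.28. These genes were picked by that test, and both contrasts rest on 6 hearts with wide spread in muscle content.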

How the data were processed

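Infarct, border and remote pieces of 18 rat hearts (6 each of cell sheet, untreated MI and sham) were sequenced as 54 libraries of polyadenylated RNA. The authors deposited raw read counts per gene, 1 file a library, aligned with STAR to the rat assembly mRatBN7.2. The counting program and its use of strand are not given in the sources used here, and DESeq2 stands in the submitters' processing notes. Overlapping and antisense genes may therefore share reads. Each file held 40319 genes and 5 summary lines, which took 16.99% to 27.5% of the counts in the 12 libraries compared here and were left out of library totals and tests. Files held 0 columns of other samples. Totals on genes were 16542441 to 23397754, and libraries of a group differed by more than sampling noise.

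Groups followed the labels, and both pieces of a heart were paired by its number, since the labels and the study's methods put zones of 1 animal together. Deviations from the group means correlated between the pieces of hearts 1 to 6 at 0.31, -0.21, -0.50, -0.15, 0.36 and -0.41. Counts were filtered with filterByExpr, normalised with TMM factors and tested with edgeR 4.0.16 (limma 3.58.1, R 4.3.3) by the quasi-likelihood F test with heart as a block, at a Benjamini-Hochberg adjusted p under 0.05 over all genes tested. CPM used TMM-scaled totals, log2 values an offset of 0.1, and a list score is the mean log2 CPM of the list's tested genes. CPM is not corrected for transcript length, so levels were compared between libraries only. DESeq2 1.42.0, other filters, library size scaling, thinning, no replicate block, all 18 cell sheet libraries and the omission of each heart were tried as alternatives, and the omission of hearts 1 and 6 was added after the values had been seen. Both tools were tested on simulated data.

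The named genes were the 12 in each direction with the lowest p among genes with a mean log2 CPM of at least 1, a common direction in 6 of 6 hearts and an official symbol (since none passed), up to 2 genes of each list with the highest level, the genes that the study names and the 5 with the lowest p for the zone difference between treatments. One gene that this rule names is not reported here. All others were chosen after their values were seen. The members and lists were chosen with earlier results of these data known. Start regions came from RefSeq (GRCr8). Python 3.11.15 with pandas 2.3.3, numpy 2.4.6, scipy 1.17.1 and matplotlib 3.10.9 did the rest.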

Additional observations from a re-analysis of the deposited data

Results flagged for a closer look

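Of 290 groups of 6 values examined, 18 (6.21%) had 1 heart apart from the other 5 by more than Dixon's 95% limit. Chance alone gives about 1 in 20. Among list scores it was 12 of 80 (15.0%), and many of these share 1 library.

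The border piece of heart 1 was lowest for muscle, with scores (mean log2 CPM) of 3.855 for sarcomere, 3.4 for stretch and stress response, 4.776 for fatty acid oxidation and 5.579 for respiratory chain genes. The border piece of heart 3 was lowest for Wnt signals (2.204), mast cells (0.953) and epicardial and mesothelial genes (2.146). The infarct piece of heart 6 was lowest for macrophage (6.05), proliferation (3.262) and endoplasmic reticulum folding genes (6.227). The infarct piece of heart 4 had the highest blood score (7.694) and its border piece the highest lung score (5.336).

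Among log2 differences between the pieces of a heart (infarct minus border), heart 3 stood above the others for the mast cell score (3.596), Mcpt1l1 (4.91), Cpa3 (4.518) and Lyve1 (2.748). Heart 2 stood above them for Postn (2.856) and heart 6 below them for Comp (-0.8202).

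For 4 of the 164 named genes all 6 cell sheet hearts differed one way between the zones and all 6 untreated MI hearts the other. All 4 are among the 5 genes picked for the lowest p of the interaction, so opposite directions follow in part from that choice. The fitted difference between both contrasts (log2) was 1.205 for C1qtnf7, 1.38 for LOC100910678, -0.5101 for Helz and -4.932 for Cyp2e1. Each had an adjusted p of 0.186 in edgeR's quasi-likelihood test of the interaction and did not pass.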

How the results depend on the processing

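Between the zones of cell sheet hearts edgeR called 0 genes without a filter, with at least 10 counts in every library, without TMM factors, on thinned counts, with all 18 libraries and without any 1 heart, against 602 with DESeq2 and 3463 without hearts 1 and 6. With no replicate block 0 passed and 3195 genes had an unadjusted p under 0.05, against 2213 with the block. The pairing was kept because zones come from the same animals, and only heart 1 correlated best with its own number. In untreated MI hearts every alternative gave 0 calls. In sham hearts the single call became 67 with DESeq2, 151 without a filter, 0 without TMM factors, 0 with no replicate block, 0 with an absolute log2 fold change above 1 asked for, and 0 to 2 with 1 heart left out. The interaction had 402 calls with DESeq2 and 0 under the other alternatives. Of 164 named genes 143 kept their sign under every alternative, and 46 passed with DESeq2, beside 602 of all 16343 genes. Without hearts 1 and 6, 77 passed, beside 3463 of all 16424 genes. Part of the 164 were named for low p or after their values were seen, so these counts follow in part from that choice. Signs turned without hearts 1 and 6 for Col3a1 0.2057, Igfbp4 0.5822, Mki67 0.3445, Col6a1 0.179, Col6a2 0.2235, Col6a3 0.2768 and Ackr3 -0.03673 (log2 fold changes throughout). They turned with no replicate block for Ccl6 -0.03436, Il33 -0.09483, Hspa5 -0.008581, Sftpc -1.586 and Adam12 -0.08625, and with all 18 libraries for Hspa5 -0.001914 and Adam12 -0.03764. With 1 heart left out, the 21 genes that turned are given by their range. Lowest to highest values were Col3a1 -0.125 to 0.1856, Col1a1 -0.02006 to 0.4361, Fn1 -0.3368 to 0.3962, Igfbp4 -0.568 to 0.2889, Eng -0.00409 to 0.07825, Ccl6 -0.3128 to 0.3991 and Il33 -0.3912 to 0.4892. Further ranges were Cd4 -0.2028 to 0.2918, Mki67 -0.4245 to 0.1532, Hspa5 -0.04888 to 0.08918, Sftpc -0.06521 to 1.918, Ager -0.6423 to 0.002169, Col6a1 -0.4682 to 0.06668 and Col6a2 -0.403 to 0.1138. The last were Col6a3 -0.3052 to 0.1683, Adam12 -0.4178 to 0.4658, Ackr3 -0.02576 to 0.2226, Nppb -1.128 to 0.2804, Csrp3 -1.226 to 0.1802, Tcap -1.564 to 0.05978 and Cox6a2 -1.745 to 0.08576. The medians of 6 lists turned as well, for collagen chains from -0.125 to 0.1683, lymphatic endothelium -0.1857 to 0.3919, complement -0.3967 to 0.1499, interferon-stimulated genes -0.1256 to 0.1831, proliferation -0.171 to 0.3217 and lung -0.6423 to 0.9602. The cause was not tested. Thinning the 12 cell sheet libraries to their lowest total left the count at 0. The precision is limited by the 6 hearts and by their spread in muscle content.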
